A study of Mus musculus with 4 samples.

Results

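The natural killer gene complex of the mouse was examined for binding of CTCF, a zinc finger protein that acts as an insulator and as an anchor of chromatin loops. All peaks with a midpoint on chromosome 6 between 128400000 and 131200000 (mm9, a span of 2.8 Mb) were taken from the deposited CTCF peak lists of plasmablasts and B cells. The span was chosen by the counts of unshared peaks, since it held an excess of peaks listed only in plasmablasts, so those counts are a description and were not tested. It held 56 of the 42765 sites of both lists together. There were 48 of 31086 plasmablast peaks and 42 of 36381 B cell peaks.

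The plasmablasts were CD138+ spleen cells sorted 3 days after a retro-orbital injection of 50 µg lipopolysaccharide (LPS) into C57BL/6 mice aged 6 weeks. The B cells were the CD43- fraction of spleens of C57BL/6 mice of the same age, purified with magnetic beads, and the labels name no injection for them. Each cell type had 1 CTCF library, and how many animals went into a library is not given in the sources used here. Plasmablast libraries were run on an Illumina HiSeq and B cell libraries on a Genome Analyzer II, so cell type, LPS exposure and instrument cannot be told apart. With no replicates, no test between the cell types was possible. Each peak has a score that is the authors' own value, of unstated unit, and it was used only to rank peaks within a list. A percentile of 100 is the highest score of that list. The lists differ in length, so a site with unlike percentiles in them is not shown to differ in binding. Purity of the cells could not be checked, because peak lists hold no expression values.

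The natural killer gene complex is a cluster of genes for lectin-like receptors of natural killer cells and other leukocytes. Such receptors set the balance of activation and inhibition by reading self and stress molecules on other cells. Klrb1c encodes NK1.1, an activating receptor whose antibody marks natural killer cells in C57BL/6 mice. Klrd1 encodes CD94, which pairs with the NKG2 chains of the Klrc genes to read Qa-1, and Klrk1 encodes NKG2D, an activating receptor for ligands of stressed cells. The Klra genes encode the Ly49 receptors, many of which bind classical MHC class I molecules, and Clec2d encodes a ligand of an inhibitory Klrb1 receptor. In the RefSeq gene table, which is on GRCm38.p6, 34 of 35 listed genes of the complex were found on chromosome 6. Along that assembly the order ran from Klrb1a, Clec2h, Klrb1c and Klrb1b over the other Clec2 genes to Cd69, a marker of early lymphocyte activation. Then came Clec12a, Clec1b, Clec1a, Clec7a (the beta-glucan receptor dectin-1) and Olr1. Klrd1 and Klrk1 followed next to each other in this list, before Klrc3, Klrc2, Klrc1, Klri1, Klri2 and the Klra genes from Klra17 to Klra2. No mm9 annotation was used here, so no peak was assigned to a gene.

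Promoter windows of 300 bases, 250 before and 50 after the gene start, were held by RefSeq (GRCm38.p6) for 29 of the listed genes, as 35 windows. They were searched on both strands for AGNNGGC, the core of the CTCF motif, as the one motif searched. It was found in 6 of the 35 windows (17.1%), those of Klrb1a, Clec2d, Olr1, Klri1, Klra5 and Klra7. Of all 32851 windows of this length in the table, 59.8% held it. The windows of the complex had a median GC content of 40% (33.0 to 50.3%), against 52.7% over all windows, and of 4247 other windows within the quartiles of the complex (37.3 to 43.8%) 37.1% held the motif. A match describes letters and no bound site, and these windows could not be set against the mm9 peaks. The bases before the start of the activating receptors Klrb1c and Klrk1, which had no match, and of Clec2d, which had 1, are shown to let the windows be compared. Capitals mark the match.

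Klrb1c (chr6:128788642-128788891, GRCm38.p6, minus strand): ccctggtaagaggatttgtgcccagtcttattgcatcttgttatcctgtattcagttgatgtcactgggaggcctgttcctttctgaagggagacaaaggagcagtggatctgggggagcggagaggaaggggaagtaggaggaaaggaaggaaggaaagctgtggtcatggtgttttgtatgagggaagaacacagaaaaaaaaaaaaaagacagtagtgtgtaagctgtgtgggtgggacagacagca

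Klrk1 (chr6:129623865-129624114, GRCm38.p6, minus strand): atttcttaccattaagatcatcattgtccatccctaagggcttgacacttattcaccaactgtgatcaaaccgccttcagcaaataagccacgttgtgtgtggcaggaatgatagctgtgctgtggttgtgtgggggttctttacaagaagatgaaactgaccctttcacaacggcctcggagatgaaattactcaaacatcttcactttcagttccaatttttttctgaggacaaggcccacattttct

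Clec2d (chr6:129180365-129180614, GRCm38.p6, plus strand): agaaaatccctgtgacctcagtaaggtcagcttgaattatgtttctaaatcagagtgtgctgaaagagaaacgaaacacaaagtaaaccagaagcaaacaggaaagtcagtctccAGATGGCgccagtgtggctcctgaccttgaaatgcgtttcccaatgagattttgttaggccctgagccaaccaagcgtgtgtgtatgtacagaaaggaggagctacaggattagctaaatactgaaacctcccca

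Most CTCF sites of the complex were common to plasmablasts and B cells, as in the series. Peaks were called shared where those of plasmablasts and B cells had 1 bp or more in common. Of the 56 sites 34 were shared, against 24702 of 42765 in the series. There were 14 plasmablast only peaks and 8 B cell only peaks. Plasmablast only peaks were 29.2% of the plasmablast peaks here (exact 95% binomial interval 17.0 to 44.1%), against 20.5% in the whole list. B cell only peaks were 19.0% of the B cell peaks here (8.60 to 34.1%), against 32.1% in the whole list. Of the 22 unshared peaks 63.6% were plasmablast only (40.7 to 82.8%), against 35.3% of all unshared peaks of the series, and this is the share for which the span was chosen. The intervals cover counting error only and take no account of that choice.

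Both flanks of the complex are given with it, with peak density higher before the complex and lower after it. In the 2.8 Mb after the complex 6 of 8 unshared peaks were plasmablast only (75%, interval 34.9 to 96.8%), among 15 plasmablast and 11 B cell peaks in all. In the 2.8 Mb before it, 10 of 25 unshared peaks were plasmablast only (40%, 21.1 to 61.3%), among 62 plasmablast and 67 B cell peaks. A difference in share between the complex and either flank is not shown. On the rest of chromosome 6 the share was 40.3% (37.2 to 43.4%) and on the other autosomes 34.1% (33.4 to 34.8%). The complex held 17.1 plasmablast and 15.0 B cell peaks per Mb, against 11.8 plasmablast and 13.1 B cell peaks on the rest of chromosome 6 and 12.6 plasmablast and 15.0 B cell peaks on the other autosomes. Its B cell density thus equalled that of the other autosomes.

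The surroundings of the unshared peaks were also described. The number of shared sites within 500 kb of an unshared peak had a median of 27.5 in the complex, against 17 for unshared peaks of the autosomes outside it. Among autosomal sites between the quartiles of the complex on this measure (19.5 and 29.8 shared sites), 27.3% of 4065 unshared peaks were plasmablast only (26.0 to 28.7%). Since the share of the complex was the reason for its choice, nothing is read from these values side by side. When the autosomes were cut into windows of 2.8 Mb, 623 windows had at least 10 unshared peaks outside the complex. The plasmablast only share had a median of 34.8% there (quartiles 25.8 and 43.9%), and in 38 windows (6.10%) it was at or above that of the complex. A plasmablast list longer than the B cell list, as found here, occurred in 96 of the 623 windows. Because the complex was chosen for its excess of plasmablast only peaks, its place among the windows follows from that choice. These window counts are therefore no measure of how rare it is.

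**Figure D1:**
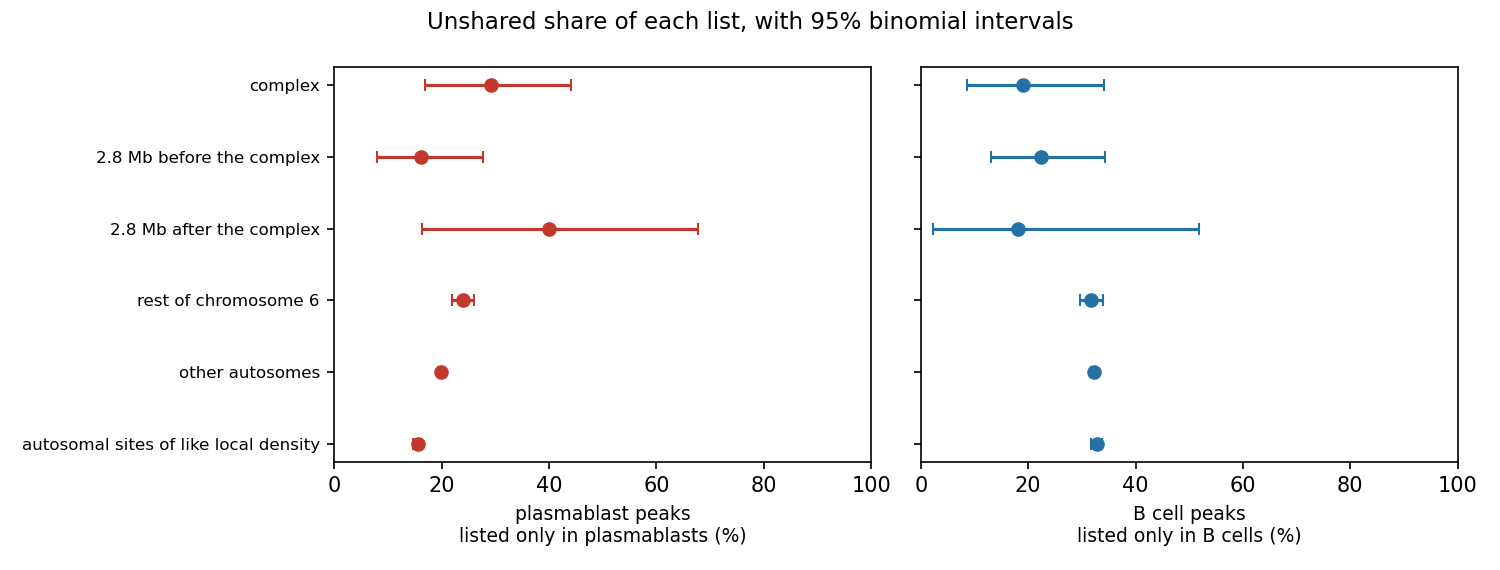
Share of plasmablast peaks listed only in plasmablasts (left, percent) and of B cell peaks listed only in B cells (right, percent) in the complex and in 5 comparison sets. Points are shares and bars are exact 95% binomial intervals, which cover counting error only. The complex stands at 29.2% on the left and 19.0% on the right, with wide intervals.

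CTCF sites filled only the first part of the complex. In steps of 400 kb from its start, the sites numbered 20, 15, 19 and 2, and the last 3 steps held none in either list. Shared sites numbered 15, 9 and 10 in the first 3 steps. Plasmablast only peaks numbered 1, 4 and 8 in these steps, and B cell only peaks 4, 2 and 1. Thus the unshared peaks of the first step were mostly from B cells and those of the third mostly from plasmablasts. In the series 35.3% of unshared peaks were plasmablast only, so a majority from B cells is usual. The counts per step are small and the span was chosen for its plasmablast only peaks, so no trend along it is read.

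**Figure D2:**
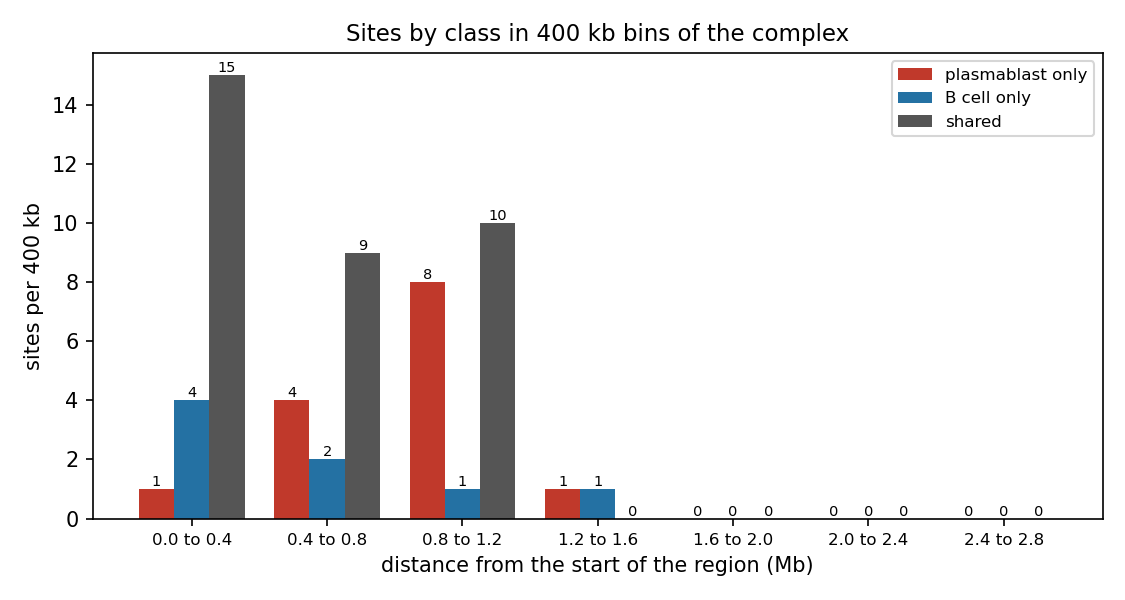
Number of plasmablast only, B cell only and shared sites (bars, from 0) in each 400 kb of the complex, by distance from its start (Mb). Plasmablast only peaks go from 1 in the first bin to 8 in the third, and the last 3 bins hold no site.

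The empty stretch took up 50.9% of the complex. It ran from the end of the last plasmablast peak at 129775876 to a shared site that started at 131240563 in plasmablasts, a width of 1.46 Mb. In the B cell list alone the stretch without a peak was 1.54 Mb wide, from 129696527 to 131240508. Among 41713 gaps between neighbouring sites of either list on the 19 autosomes it ranked 173rd by width, and 9th of 2339 on chromosome 6. The median gap was 17.5 kb and the widest was 7.71 Mb. How reads that match several places were handled is not given in the sources used here, and closely related gene copies such as those of the Klra family share sequence. The stretch is therefore not shown to lack CTCF, and which genes lie in it was not determined.

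The sites next to the bounds show what the rule took in and left out. The first site inside was shared, at 128417472 to 128417650 in plasmablasts (percentile 9.40) and 128417375 to 128417679 in B cells (percentile 12.0). The nearest site before the span was shared too, 3.67 kb outside, at percentile 36.7 in plasmablasts and 58.7 in B cells. The first site after it lay 40.7 kb outside, at percentile 43.2 in plasmablasts and 58.0 in B cells.

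**Figure D3:**
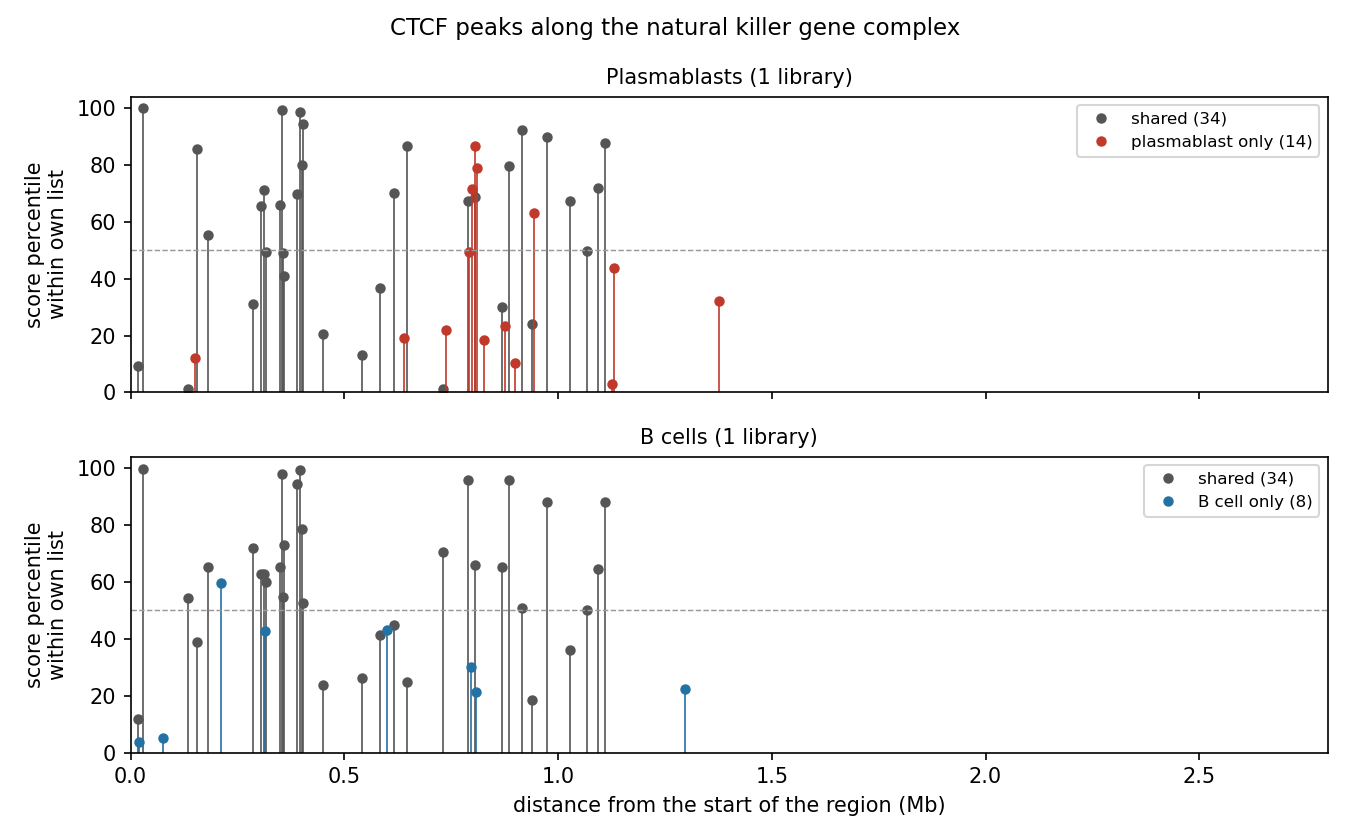
Score percentile within its own list (y axis) of each plasmablast peak (upper panel) and B cell peak (lower panel) by distance from the start of the complex (x axis, Mb). Each stem is 1 peak of 1 library, grey for the 34 shared sites, red for the 14 plasmablast only and blue for the 8 B cell only peaks, and the dashed line is percentile 50. All sites lie left of the middle of the span.

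The plasmablast only peaks were mostly weak, and the stronger ones lay close together. Their percentiles ran from 2.98 to 86.6 with a median of 27.8, against a median of 27.3 for all plasmablast only peaks of the series. Of the 14 peaks 4 were in the upper part of the plasmablast list by score, above its median (28.6%, against 24.9% in the series), and none was in its highest decile. The strongest was at 129205095 to 129205273, with a score of 50.2 and percentile 86.6. The next was at 129210166 to 129210344, with a score of 41.3 and percentile 78.9. The third, at 129198382 to 129198560, had a score of 34.5 and percentile 71.5. These 3 peaks lay within 12.0 kb, around a shared site at 129206172 to 129206350. The fourth peak above the median was at 129343231 to 129343409, with a score of 27.8 and percentile 62.9.

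Just below the median stood the peak at 129192103 to 129192281, with a score of 19.0 and percentile 49.3. The peaks at 129531423 to 129531601 (score 16.2, percentile 43.7) and 129775698 to 129775876 (score 11.7, percentile 32.2) were the last plasmablast peaks before the empty stretch. Both were more than 20 kb from a B cell midpoint, at 22021 and 79412 bp. Then followed 129276174 to 129276352 (percentile 23.4), 129137527 to 129137705 (22.0), 129038267 to 129038445 (19.1) and 129225404 to 129225582 (18.3). The lowest were 128549714 to 128549892 (12.1), 129299181 to 129299359 (10.3) and 129525469 to 129525647, which had a score of 4.6 and percentile 2.98. In all, 7 of the 14 peaks lay below percentile 25.

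No plasmablast only peak was a near miss of a B cell peak. The nearest B cell midpoints lay 1073 to 79412 bp away, with a median of 7105 bp, and 9 of 14 were within 10 kb. In the series the median distance was 11146 bp and the smallest 242 bp. Of the 14 peaks 9 fell between 129137527 and 129343409, a stretch of 206 kb that also held 6 shared sites and 2 B cell only peaks. Over the 6049 autosomal plasmablast only peaks, those of the complex included, no stretch of that length starting at such a peak held more than 9. Besides this stretch itself, 1 other, on another chromosome, also held 9. The stretch was delimited after its values were seen, in a span chosen for an excess of these same peaks. A high place among stretches was thus favoured by the choice, and these counts are a description only.

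The 8 B cell only peaks were weak as well, and 2 of them lay in that stretch. Their percentiles ran from 3.77 to 59.6 with a median of 26.3, against 19.8 for all B cell only peaks. Only the peak at 128612356 to 128612660 stood above the median of the B cell list, with a score of 86.1 and percentile 59.6. It lay 32296 bp from the nearest plasmablast midpoint. The peaks at 128999078 to 128999382 (score 49.1, percentile 43.2) and 128714230 to 128714534 (score 48.2, percentile 42.6) came next. The peak at 128999078 was 15652 bp and that at 128714230 was 2627 bp from a plasmablast midpoint.

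Among the weaker ones, the peaks at 129195854 to 129196158 (percentile 30.2) and 129208677 to 129208981 (percentile 21.1) lay between plasmablast only peaks, 2465 and 1426 bp from the nearest. Plasmablasts and B cells thus each had peaks of their own, without overlap, in the same 14.5 kb. The peak at 129696223 to 129696527 (percentile 22.4) was the last B cell peak before the empty stretch. The lowest were at 128474421 to 128474725 (percentile 5.17) and 128419605 to 128419909 (percentile 3.77, score 14.8).

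The strongest sites of the complex were shared. The 5 with the highest mean percentile over both lists are given first, and this choice favours sites that ranked alike in plasmablasts and B cells. The site at 128429874 to 128430052 (plasmablast peak) scored 122.5 in plasmablasts, at percentile 99.9, and 339.9 in B cells, at percentile 99.6. The site at 128795408 to 128795586 scored 80.1 (98.6) in plasmablasts and 311.2 (99.2) in B cells. The site at 128753278 to 128753456 scored 85.6 (99.1) in plasmablasts and 279.7 (98.0) in B cells. Each of these 3 sites lay within 1.5 percentile points of itself in the other list and its midpoints were at most 7 bp apart. The other sites among the 5 highest by mean percentile were 129373793 to 129373971 (89.6 in plasmablasts, 88.0 in B cells) and 129509423 to 129509601 (87.8 in plasmablasts, 88.0 in B cells).

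In all, 17 of the 34 shared sites were above the median of both lists. Beside these 5 sites, they included 3 that ranked higher in B cells by more than 15 points. The site at 129283924 to 129284102 had percentile 79.4 in plasmablasts and 95.8 in B cells. The site at 128789617 to 128789795 had 69.8 in plasmablasts and 94.5 in B cells, and that at 129188002 to 129188180 had 67.4 in plasmablasts and 95.7 in B cells. In the opposite direction, the site at 128804172 to 128804350 had 94.5 in plasmablasts and 52.6 in B cells. The site at 129316006 to 129316184 had 92.3 in plasmablasts and 50.9 in B cells. The remaining 7 sites of the 17 differed by less than 10 points between plasmablasts and B cells.

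Those 7 were at 128800079 (percentile 79.8 in plasmablasts, 78.6 in B cells), 129494351 (71.9 in plasmablasts, 64.4 in B cells), 129206172 (68.5 in plasmablasts, 66.0 in B cells) and 128710927 (71.2 in plasmablasts, 62.7 in B cells), each position being the start of the plasmablast peak. The others were at 128749682 (66.0 in plasmablasts, 65.1 in B cells), 128703951 (65.5 in plasmablasts, 62.7 in B cells) and 128580123 (55.5 in plasmablasts, 65.1 in B cells). Of these 7 sites 4 belong to 1 dense group. Between 128703887 and 128800262, a span of 96.4 kb, the complex held 10 shared sites, 1 B cell only peak and no plasmablast only peak. Their percentiles were 40.7 to 99.1 in plasmablasts (median 67.9) and 54.5 to 99.2 in B cells (median 69.0). Of 24186 autosomal shared sites, 197 (0.815%) began a stretch of 100 kb with 10 or more shared sites, 2 of them in the complex itself, and the highest number was 15. This group, too, was delimited after its values were seen.

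Above the median in plasmablasts and below it in B cells were 4 shared sites. The site at 129045253 to 129045431 scored 50.4 in plasmablasts, at percentile 86.7, and 27.8 in B cells, at percentile 24.9. Its midpoints were 152 bp apart, the widest offset of the 34 pairs. The site at 128554576 to 128554754 had percentile 85.4 in plasmablasts and 38.8 in B cells. The sites at 129017110 and 129426823 had 70.3 and 67.2 in plasmablasts, against 44.8 and 35.9 in B cells. All 4 had midpoints 45 to 152 bp apart, whereas the median offset over the 34 pairs was 11.5 bp, and 17 bp in the series. Offsets in this range also occurred at sites of like rank in both lists, as at 128800079 (58 bp) and 129339188 (95 bp).

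Below percentile 50 in plasmablasts and above it in B cells were 8 shared sites. The widest gap was at 129130427 to 129130605, which scored 3.7 in plasmablasts, at percentile 1.05, and 124.1 in B cells, at percentile 70.5. Next was 128534245 to 128534423, with a score of 3.9 and percentile 1.31 in plasmablasts against 71.3 and 54.2 in B cells. The site at 128686262 had percentile 31.1 in plasmablasts and 71.9 in B cells. The first and second of these were thus among the lowest scores of the plasmablast list, while all 3 stood above the median of the B cell list. The site at 129268559 had 29.9 in plasmablasts and 65.1 in B cells, and that at 128758658 had 40.7 in plasmablasts and 73.0 in B cells. The remaining 3, at 128716920, 128755236 and 129468140, differed by less than 11 points between plasmablasts and B cells. At 129468140 the B cell score of 62.1 equalled the median of the list, with a percentile of 50.1. The last 5 shared sites were below the median of both lists, at percentiles 9.40 to 36.7 in plasmablasts and 12.0 to 41.4 in B cells.

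Shared sites of the complex were therefore a mixture of closely matched and widely split ranks. In 7 of 34 (20.6%) the percentiles differed by more than 40 points, against 8.71% of the 24186 autosomal shared sites. Plasmablasts were higher by more than 40 points at 4 of the 34 sites, against 1.90% of the autosomal shared sites. B cells were higher by that much at 3 of the 34, against 6.81%. Yet the median absolute gap was 9.05 points here and 13.6 points in the series. The median percentile over the 34 sites was 67.3 in plasmablasts and 63.6 in B cells, against 56.1 in plasmablasts and 65.4 in B cells over all shared sites. Plasmablasts had the higher percentile at 16 of 34 sites (47.1%), against 34.0% of all shared sites. In the 2.8 Mb before the complex this held for 25 of 52 shared sites (48.1%), and in the 2.8 Mb after it for 3 of 9 (33.3%). The value is thus not particular to the complex. Ranked over the 34 sites, plasmablast and B cell scores correlated with a Spearman rho of 0.45, against 0.70 over the series. These coefficients are descriptions, since all sites come from the same 2 libraries.

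**Figure D4:**
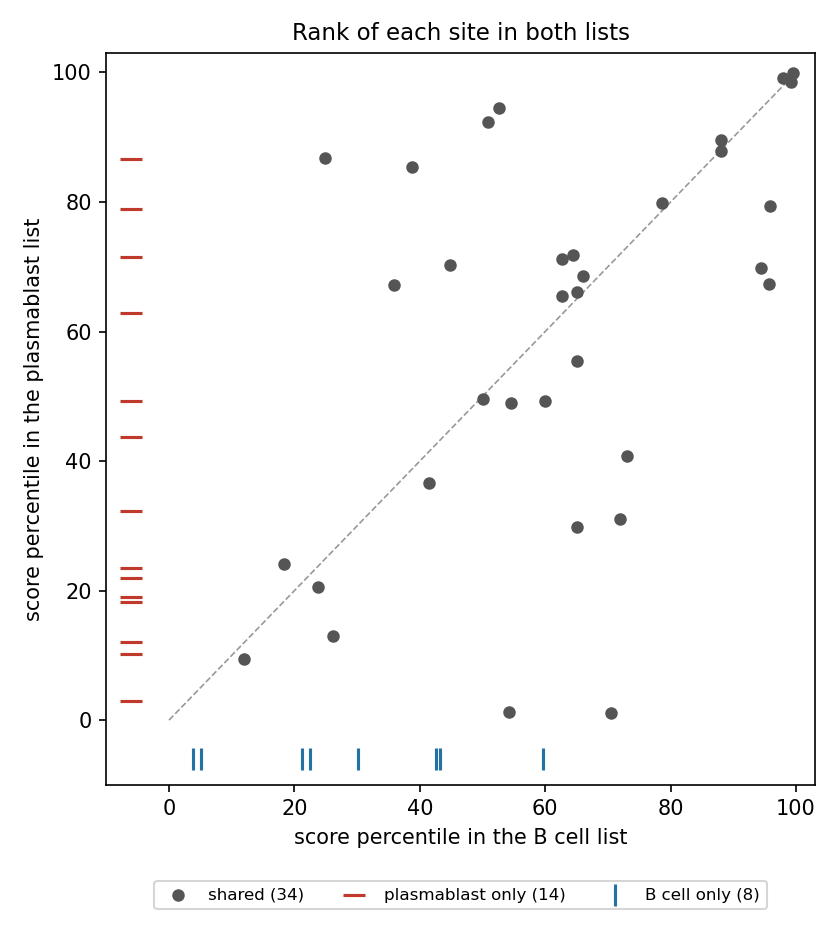
Score percentile in the plasmablast list (y axis) against that in the B cell list (x axis) for the 34 shared sites (grey points), with the 14 plasmablast only peaks as red marks at the left edge and the 8 B cell only peaks as blue marks at the lower edge. The dashed line marks equal percentiles. 3 sites sit near percentile 100 in both lists, and 2 sites of middle or high B cell percentile sit near 1 in plasmablasts.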

How the data were processed

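The deposited data were 1 list of CTCF peaks per cell type. The score of each peak is the authors' own value, and its unit is not stated. Bowtie, HOMER and the build mm9 are named in the submitters' processing notes; the sources used here give no versions, thresholds, pooling or role of the input. Depth is unknown, and input libraries were not analysed here. Positions were read as BED, and 1 was added to each start. Classes by overlap were computed with scipy 1.17.1, pandas 2.3.3 and numpy 2.4.6 under Python 3.11.15, and recounted with bedtools 2.31.1, which gave the same 34, 14 and 8 sites. The overlap code was also tested on simulated data. Shares have exact (Clopper-Pearson) intervals. Figures used matplotlib 3.10.9. The span, the gene list and the comparisons were chosen with earlier results of these data known. Peaks were named by rule: the 5 highest and the lowest of each class and all above their list's median; others were added after their values were seen. Alternatives changed the overlap rule, the lists' threshold and the bounds.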

Additional observations from a re-analysis of the deposited data

How the results depend on the processing

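Of 64 alternative values, 49 stayed within 1.5 times the count or within the interval of the value reported, and 15 moved. With 50% reciprocal overlap there were 30 shared sites, 18 plasmablast only and 12 B cell only peaks, the last at 1.5 times the 8 reported, and the plasmablast only share of unshared peaks was 60%. It was 62.5% with midpoints within 100 bp. Moving both bounds in or out by 200 kb gave 68.4% and 62.5%. In the setting with only peaks above the median score of their own list, classes were kept from the full lists. In the complex, 21 shared and 4 plasmablast only peaks of the plasmablast list were left, and 1 B cell only peak. Of the peaks left, 84% in plasmablasts and 96% in B cells were shared (89.8% and 94.1% in the series). A shared peak was kept even where its partner fell below the median, and 17 shared sites were above the median of both lists. Of the unshared peaks 80% were then plasmablast only (28.4 to 99.5%), against 59.9% in the series, where it was 35.3% with all peaks. The median plasmablast only percentile was 75.2, and either list held 8.93 peaks per Mb; fewer peaks enter by construction. With the 10000 highest scoring peaks of each list, overlap was taken anew, so a peak whose partner fell below the cut became unshared. By these new classes 8 sites were shared, 11 peaks were plasmablast only and 2 were B cell only. Of the plasmablast only peaks of the full lists, only those at percentiles 71.5, 78.9 and 86.6 were among the 11. The others among the 11, and the 2 B cell only peaks, were shared in the full lists. Then 84.6% of unshared peaks were plasmablast only, against 50% in the series, which lists of equal length fix. Of the plasmablast peaks 42.1% were shared (69.0% in the series). The median percentile of the 11 peaks was 78.9, and this set includes sites that were shared in the full lists. With bounds at the first and last listed peak, chosen after seeing the data, densities were 35.3 peaks per Mb in plasmablasts and 30.9 in B cells. No paired analysis was possible because each cell type had 1 library, and for the same reason none could be left out. Since the depth of the libraries is unknown, an unlisted site may still be bound.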
